A study of Mus musculus with 2 samples.

Results

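The inorganic ion solute carriers are membrane proteins that move sodium, potassium, chloride, calcium, bicarbonate, phosphate and sulfate across cell membranes. They were taken here as all protein-coding genes of 9 families, named Slc4, Slc8, Slc9, Slc12, Slc13, Slc20, Slc24, Slc26 and Slc34, and 57 such genes were found among the 43346 genes of the tables, 21474 of which are protein-coding. Membership rests on the gene symbol. The members, and the roles, pairs and gene lists used below, were chosen with earlier results of these data known. The study measured total RNA in 2 kidney libraries of 1 group, embryos of the mouse strain B6NCrl at embryonic day 14.5; the labels give no genetic change or treatment. The labels name them biological replicates 1 and 2, and describe each as the 2 kidneys of 1 pup while giving its sex as pooled male and female. Each library was made from 10 ng of RNA longer than 200 nt. There is no second condition, so no gene could be tested, and every difference below is a size beside the spread of 2 libraries.

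In the adult kidney these carriers divide the labour of salt and acid-base balance among the segments of the nephron. The proximal tubule takes back phosphate, sulfate, citrate and bicarbonate, the thick ascending limb and the distal convoluted tubule take back sodium chloride through cotransporters of the Slc12 family, and the intercalated cells of the collecting duct trade chloride for bicarbonate through Slc4 and Slc26 exchangers. Close relatives of the same families are found in most cells of the body, where they set cell volume, intracellular pH and phosphate or sulfate supply. By adult expression, 17 of the 57 genes were listed as carriers of a nephron segment, 15 as housekeeping carriers and 25 as carriers known mainly from other tissues.

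The gene tables held 29718428 expected counts in replicate 1 and 29204212 in replicate 2. The 57 carriers took 23867.6 and 17233.4 of these, which is 0.0840% (95% Clopper-Pearson interval 0.0829 to 0.0850) and 0.0621% (0.0612 to 0.0630) of the counts on genes. Levels are given as TPM, a transcript abundance scaled to length, so that genes can be set side by side. Genes of the embryonic kidney were present in both libraries: all 6 nephron progenitor genes listed (Six2, Cited1, Wt1, Eya1, Pax2 and Sall1) and all 6 ureteric epithelium genes listed were at 1 TPM or more, with Cited1 at 131.49 and 141.27 TPM and Calb1 at 164.16 and 167.65 TPM. Markers of mature segments were lower. The summed level of 6 proximal tubule markers was 30.28 and 18.5 TPM, of 6 loop and distal markers 10.68 and 6.11 TPM, and of 5 intercalated cell markers 11.78 and 8.43 TPM. Pvalb, a marker of the distal convoluted tubule, had 0 TPM in both libraries. In whole kidney RNA, fewer cells of a type and less RNA per cell cannot be told apart.

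Of the 57 carriers, 27 reached 1 TPM in both libraries, 4 in 1 library and 26 in neither. The same floor was passed by 59% of all protein-coding genes, a larger share than 27 of 57. The 3 roles differed in how many members passed: 14 of the 15 housekeeping carriers, 8 of the 17 segment carriers and 5 of the 25 carriers of other tissues. The median level of the housekeeping carriers was 12.64 TPM in replicate 1 and 8.57 TPM in replicate 2. The median of the segment carriers was 1.59 and 0.94 TPM, and that of the carriers of other tissues 0.32 and 0.16 TPM, beside 4.68 and 3.5 TPM over all protein-coding genes. The median of the segment carriers was thus 0.118 ± 0.0114 (SD, n = 2) of the housekeeping median, 7.95 times lower in replicate 1 and 9.12 times lower in replicate 2. This ratio depends on the lists: it was 0.0534 without the segment carriers that are also well known from other tissues.

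**Figure D1:**
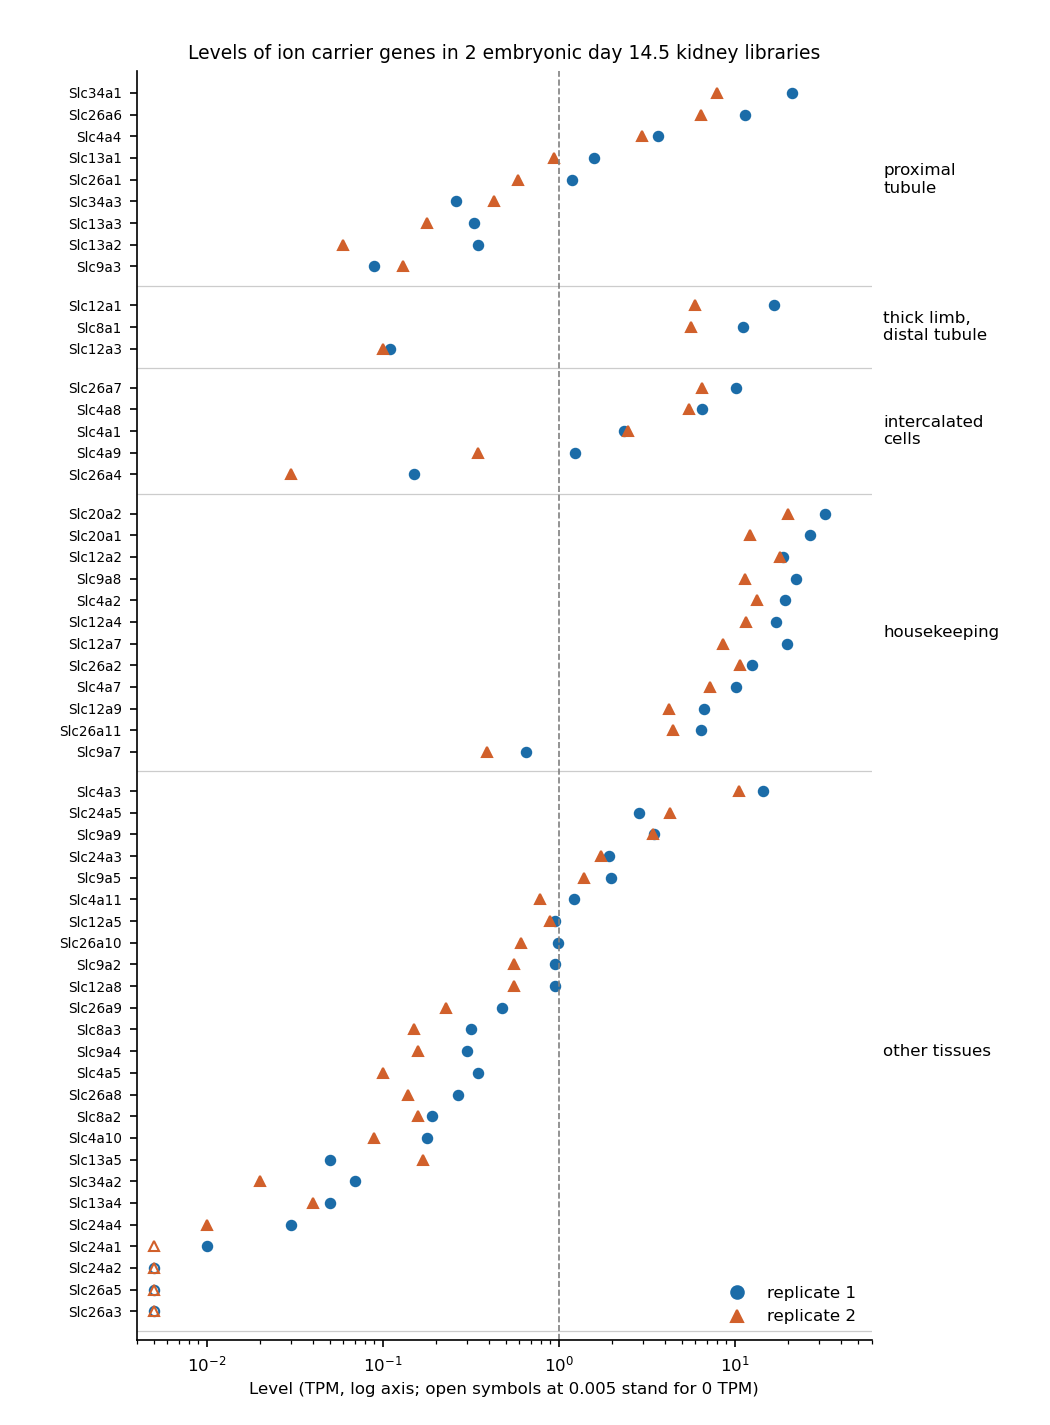
Level in TPM on a log axis of 54 of the 57 carriers in replicate 1 (circles) and replicate 2 (triangles), grouped by role, with the detection floor of 1 TPM as a dashed line; open symbols stand for 0 TPM. The housekeeping carriers lie to the right of the floor with 1 exception, Slc9a7, while the segment carriers spread from 0.03 TPM to 21.33 TPM.

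Among the carriers of the proximal tubule, Slc34a1 was the highest. It encodes NaPi-IIa, the sodium-phosphate cotransporter of the proximal brush border, and lies on chromosome 13 from 55398187 to 55415592 (mm10, plus strand). It was at 21.33 TPM in replicate 1 and 7.97 TPM in replicate 2, from 1241 and 535 counts, and ranked sixth of all carriers by its mean of 14.65 ± 9.45 TPM (SD, n = 2). Both values were above the median protein-coding gene of their library. Its partner in phosphate uptake, Slc34a3 (NaPi-IIc), was at 0.26 and 0.43 TPM from 9 and 14 counts, under the floor in both. The intervals of Slc34a3 in the deposited tables, 0.435 to 1.57 and 0.539 to 1.67 TPM, lie above its estimates and reach past 1 TPM, so its place relative to the floor is not settled at this depth. Slc34a2 (NaPi-IIb), the relative of intestine and lung, had 4 and 2 counts (0.07 and 0.02 TPM). Slc34a1 thus held 98.5% and 94.7% of the summed TPM of its family.

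Slc4a4 encodes NBCe1, the sodium-bicarbonate cotransporter that returns bicarbonate to the blood on the basolateral side of the proximal tubule. It was at 3.69 and 2.99 TPM, above the floor in both libraries. Slc9a3 encodes NHE3, the sodium-proton exchanger of the apical side, and had 4 and 7 counts (0.09 and 0.13 TPM). As whole genes, Slc4a4 and Slc9a3 therefore stood on opposite sides of the floor in both libraries. The transcripts of Slc4a4 that give the form known as the kidney form, described below, summed to 0.61 and 0.27 TPM. By these sums that form was under the floor in both libraries, as Slc9a3 was. In replicate 1 the deposited interval of 1 of its transcripts, Slc4a4-204, reached 1.06 TPM, so its place relative to the floor is not settled there. The intervals of Slc9a3 ended at 0.197 and 0.247 TPM. Nherf1 and Nherf2, the scaffold proteins that bind NHE3 and NaPi-IIa and are listed as Slc9a3r1 and Slc9a3r2, were at 86.44 and 61.09 TPM and at 70.2 and 60 TPM, and Pdzk1, another such scaffold, was at 49.31 and 26.42 TPM.

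The sulfate, oxalate and dicarboxylate carriers of the proximal tubule were low with 1 exception. Slc13a1 (NaS1, apical sulfate uptake) was at 1.59 and 0.94 TPM and Slc26a1 (SAT1, basolateral sulfate-oxalate exchange) at 1.2 and 0.59 TPM, each above the floor in replicate 1 alone. Slc13a2 (NaDC1, citrate uptake) was at 0.35 and 0.06 TPM from 15.97 and 3 counts, and Slc13a3 (NaDC3, its basolateral counterpart) at 0.33 and 0.18 TPM. None of the 5 Slc13 genes passed the floor in both libraries, and the family held 0.686% ± 0.0268 (SD, n = 2) of the summed TPM of all carriers. Slc13a2 shares 26.2% of its exon bases with an antisense gene, and Slc26a1 3.48% with Idua, at 8.88 and 8.14 TPM. No label or header says whether reads were counted by strand, so those of such overlaps cannot be assigned to 1 gene with certainty.

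The exception was Slc26a6, an apical anion exchanger that trades chloride for oxalate, formate or bicarbonate. It was listed at 11.51 and 6.49 TPM. Of this level, 51.65% and 59.55% came from 1 short transcript, Slc26a6-203 of 418 nt, which runs from 108912410 to 108913049 on chromosome 9 at the far end of the gene. Counting only the other transcripts annotated as protein-coding, Slc26a6 was at 3.40 and 2.16 TPM. The gene stayed above the floor in both libraries on that count, at a level near that of Slc4a4.

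In the thick ascending limb and distal tubule, the sodium chloride cotransporters of the adjoining segments stood on opposite sides of the floor. Slc12a1 encodes NKCC2, the sodium-potassium-chloride cotransporter of the thick ascending limb and the target of loop diuretics, on chromosome 2 from 125152505 to 125230002. It was at 16.83 and 6 TPM from 1363 and 517 counts. Slc12a3 encodes NCC, the thiazide-sensitive cotransporter of the distal convoluted tubule, and had 7 counts in each library, 0.11 and 0.1 TPM. The lower of the Slc12a1 values was still far above both values of Slc12a3. Slc8a1 encodes NCX1, the sodium-calcium exchanger of the distal nephron that is also abundant in heart muscle, and was at 11.14 and 5.69 TPM. Beside them, Kcnj1 (ROMK) and Bsnd (barttin), which work with NKCC2 in the thick limb, were at 2.55 and 1.09 TPM and at 3.78 and 1.57 TPM.

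The transcript tables divide Slc12a1 into its forms. NKCC2 is made in forms that differ in 1 cassette exon, chosen from 3 alternatives, which encodes part of a membrane-spanning segment and changes the affinity for the transported ions. The 3 alternatives lie one after another on the plus strand of chromosome 2 as coding exons of 96 nt, each the exon numbered 5 of its transcript in GENCODE M21. They are shown because the forms counted below are told apart by them; capitals mark the 45 positions at which they are not all the same, and the sequences are those of GENCODE M21 transcripts.
The first cassette, Slc12a1-202, chr2:125165495-125165590: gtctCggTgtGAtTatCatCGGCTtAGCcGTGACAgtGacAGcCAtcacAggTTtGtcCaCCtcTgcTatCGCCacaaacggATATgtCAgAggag
The second cassette, Slc12a1-201, chr2:125166123-125166218: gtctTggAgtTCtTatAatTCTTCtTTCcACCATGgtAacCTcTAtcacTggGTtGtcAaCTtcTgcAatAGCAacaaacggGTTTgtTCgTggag
The third cassette, Slc12a1-203, chr2:125166673-125166768: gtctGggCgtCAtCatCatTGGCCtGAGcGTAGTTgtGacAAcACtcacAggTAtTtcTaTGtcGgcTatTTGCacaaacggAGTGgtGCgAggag

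The first and second cassettes are identical at 65.6% of their positions, the first and the third at 68.8%, and the second and the third at 58.3%. The form with the second cassette was at 8.05 TPM in replicate 1 and 2.32 TPM in replicate 2. The form with the third was at 5.1 and 1.69 TPM, and that with the first at 1.23 and 0.41 TPM. As shares of the 3 forms, the second cassette held 54.2% ± 2.47, the third 36.9% ± 1.96 and the first 8.91% ± 0.511 (SD, n = 2). The order of the 3 forms was the same in both libraries, although the level of the gene differed 2.8 times between them. The deposited intervals of the estimates are wide: in replicate 1 the second cassette's form ran from 5.84 to 9.88 TPM, that of the third from 2.89 to 6.80 TPM and that of the first from 0.464 to 2.45 TPM. In replicate 1 the interval of the first lay apart from the other two, which overlapped each other, and in replicate 2 all 3 overlapped. The order of the second and the third is therefore not settled within either library. A further transcript with a retained intron, Slc12a1-204, held 14.53% and 26.29% of the gene's TPM and is left out of these shares.

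The carriers of intercalated cells spread from pendrin, near the limit of detection, to Slc26a7. Slc26a7, an anion exchanger of collecting duct intercalated cells, was at 10.18 and 6.5 TPM, and Slc4a8 (NDCBE, a sodium-driven chloride-bicarbonate exchanger) at 6.52 and 5.52 TPM. Slc4a1 (AE1, the basolateral exchanger of acid-secreting intercalated cells and band 3 of red blood cells) was at 2.36 and 2.49 TPM. Slc4a9 (AE4) was at 1.24 and 0.35 TPM, and Slc26a4 (pendrin) had 9 and 2 counts, 0.15 and 0.03 TPM. Foxi1, the transcription factor of intercalated cells, was the highest of the 5 intercalated cell markers listed, at 7.29 and 3.85 TPM. Atp6v0a4 was at 1.98 and 2.27 TPM and Atp6v1b1 at 1.71 and 1.85 TPM. Atp6v1c2, at 0.8 and 0.4 TPM, and Hmx2, at 0 and 0.06 TPM, were under the floor in both libraries.

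Slc4a1 is also made by the precursors of red blood cells. The transcript Slc4a1-201 of 4545 nt held 100% and 95.13% of its TPM, and no separate value is given here for the shorter kidney form of AE1. Of 10 erythroid genes listed, 6 were at 1 TPM or more in both libraries, none was at 0, and their summed level was 12279.8 and 10242.3 TPM, nearly all from globins, with, by their means, Hba-a2 highest at 5529.78 and 4599.04 TPM and Ank1 lowest at 0.41 and 0.27 TPM. The part of red cells in the level of Slc4a1 was not tested.

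The housekeeping carriers were led by the phosphate and volume regulators. Slc20a2 (PiT-2) was the highest of all 57 carriers, at 32.74 and 20.13 TPM, followed by Slc20a1 (PiT-1) at 27.01 and 12.26 TPM by the mean of the libraries; in replicate 2 Slc12a2 and Slc4a2 were above Slc20a1. Both are phosphate importers of most cells. Slc12a2 (NKCC1), the ubiquitous relative of NKCC2, was at 18.77 and 18.15 TPM, the smallest difference between libraries among the detected housekeeping carriers. Of the potassium-chloride cotransporters, which let cells shrink, Slc12a4 (KCC1) was at 17.13 and 11.58 TPM and Slc12a7 (KCC4) at 19.83 and 8.57 TPM. Their relative Slc12a9 was at 6.71 and 4.27 TPM.

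Of the carriers that set intracellular pH, Slc4a2 (AE2) was at 19.45 and 13.5 TPM and Slc4a7 (NBCn1) at 10.23 and 7.28 TPM. The proton exchangers ranged widely: Slc9a8 (NHE8) was at 22.44 and 11.49 TPM and Slc9a7 (NHE7, of the Golgi) at 0.65 and 0.39 TPM, the only housekeeping carrier under the floor. For Slc9a8, transcripts annotated as protein-coding held 24.1% and 18.3% of the level, 5.4 and 2.1 TPM, so its high place among the carriers rests on transcripts with retained introns and other non-coding forms. The sulfate carrier Slc26a2, known for its role in cartilage, was at 12.64 and 10.77 TPM and Slc26a11 at 6.45 and 4.45 TPM.

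Among carriers known mainly from other tissues, Slc4a3 (AE3, of heart and brain) was the highest on all transcripts, at 14.42 and 10.63 TPM. The transcript Slc4a3-209, of 706 nt and with a retained intron, held 48.92% and 53.23% of its level; its protein-coding transcripts summed to 0.95 and 1.19 TPM. Slc24a5, the exchanger of pigment granules, was at 2.86 and 4.29 TPM. It shares 39.5% of its exon bases with Myef2 on the opposite strand, which was at 111.35 and 88.06 TPM, and the part of Myef2 in its counts was not tested. Slc9a9 (NHE9, of endosomes) was at 3.49 and 3.44 TPM, Slc24a3 at 1.93 and 1.74 TPM and Slc9a5 (NHE5, of neurons) at 1.99 and 1.39 TPM. Of 6 neuronal genes listed, 2 were at 1 TPM or more in both libraries, with a summed level of 20.52 and 17.85 TPM.

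At the other end, 3 carriers had 0 counts in both libraries. Slc24a2, of neurons and cone photoreceptors, allows at most 0.0441 and 0.0382 TPM if a count of 0 is taken to allow 3 counts. Slc26a3 (DRA, of the colon) allows 0.0880 and 0.0763 TPM, and Slc26a5 (prestin, of cochlear outer hair cells) 0.0782 and 0.0677 TPM. Slc24a1, of rod photoreceptors, had 1 count and 0 counts, Slc24a4 had 2 and 1, and Slc13a4, a sulfate carrier of the placenta, had 3 and 2. The remaining carriers of this role lay between these and 1.22 TPM in replicate 1.

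By family, Slc12 held the largest share of the summed TPM of the carriers, 26.8% ± 0.526 (SD, n = 2), with 6 of its 9 genes detected. Slc4 followed with 19.4% ± 2.29 (6 of 10 genes) and Slc20 with 16.7% ± 1.58, from only 2 genes. Slc26 held 13.7% ± 0.888 (4 of 11 genes) and Slc9 12.3% ± 0.0305 (5 of 9 genes). Slc34 held 5.24% ± 1.70, Slc8 3.17% ± 0.414, Slc24 2.17% ± 1.03 and Slc13 the least. The phosphate carriers of Slc20 and Slc34 differ in members and in order: both Slc20 genes were above Slc34a1 in each library.

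**Figure D2:**
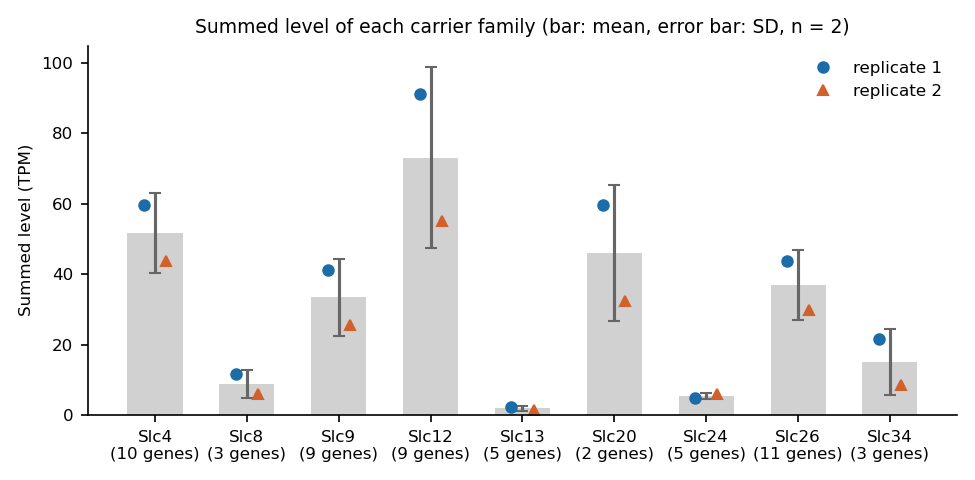
Summed TPM of each of the 9 families, with the number of genes under each name; bars are means of 2 libraries, error bars their SD, and points the libraries. Slc12 is highest in both libraries, at 91.3 and 55.04 TPM, and Slc13 lowest, at 2.37 and 1.39 TPM.

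Setting segment carriers beside a housekeeping carrier of the same family, or of Slc20 for the phosphate carriers of Slc34, gave 14 pairs. The partners were not matched by the ions carried. Slc26a4 and Slc26a7, for example, were set beside the sulfate carrier Slc26a2. The segment carrier was the lower of the pair in both libraries in all 14. The pairs were chosen with earlier results of these data known, and this count depends on the partner. Slc26a11, another housekeeping carrier of the Slc26 family, was at 6.45 and 4.45 TPM. On all transcripts, Slc26a6 (11.51 and 6.49 TPM) and Slc26a7 (10.18 and 6.5 TPM) were above it in both libraries. Without its leading short transcript, the protein-coding transcripts of Slc26a6 summed to 3.4 and 2.16 TPM. Those of Slc26a11 were higher, at 5.23 and 3.84 TPM. Of the Slc26a7 level, 3.28 and 1.74 TPM came from Slc26a7-204 of 715 nt, from 39.39 and 24.1 counts. The leading transcript, Slc26a7-201, was at 6.9 and 4.76 TPM, little above Slc26a11 on all transcripts. Slc8a1 and the segment carriers of Slc13 have no pair. The pairs share genes, 13 segment and 7 housekeeping carriers in all, and are therefore not independent of each other. The gap varied widely. NCC (Slc12a3) was 171 times lower than NKCC1 (Slc12a2) in replicate 1 and 182 times lower in replicate 2. NKCC2 (Slc12a1), in contrast, stood at 0.897 of NKCC1 in replicate 1 and at 0.331 in replicate 2, while the level of NKCC1 itself differed little between the libraries. Slc26a4 was 84.3 and 359 times lower than Slc26a2, a ratio resting on 9 and 2 counts of Slc26a4.

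The phosphate carriers were split. Slc34a1 stood at 0.790 and 0.650 of Slc20a1 and at 0.651 and 0.396 of Slc20a2, while Slc34a3 was 126 and 46.8 times lower than Slc20a2. In the bicarbonate pairs, Slc4a4 stood at 0.361 and 0.411 of Slc4a7 and Slc4a8 at 0.637 and 0.758 of it. Slc4a1 was 8.24 and 5.42 times lower than Slc4a2, and Slc4a9 15.7 and 38.6 times lower. Against Slc26a2, Slc26a6 stood at 0.911 and 0.603, or at 0.270 and 0.202 on protein-coding transcripts without Slc26a6-203, Slc26a7 stood at 0.805 and 0.604, and Slc26a1 was 10.5 and 18.3 times lower.

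**Figure D3:**
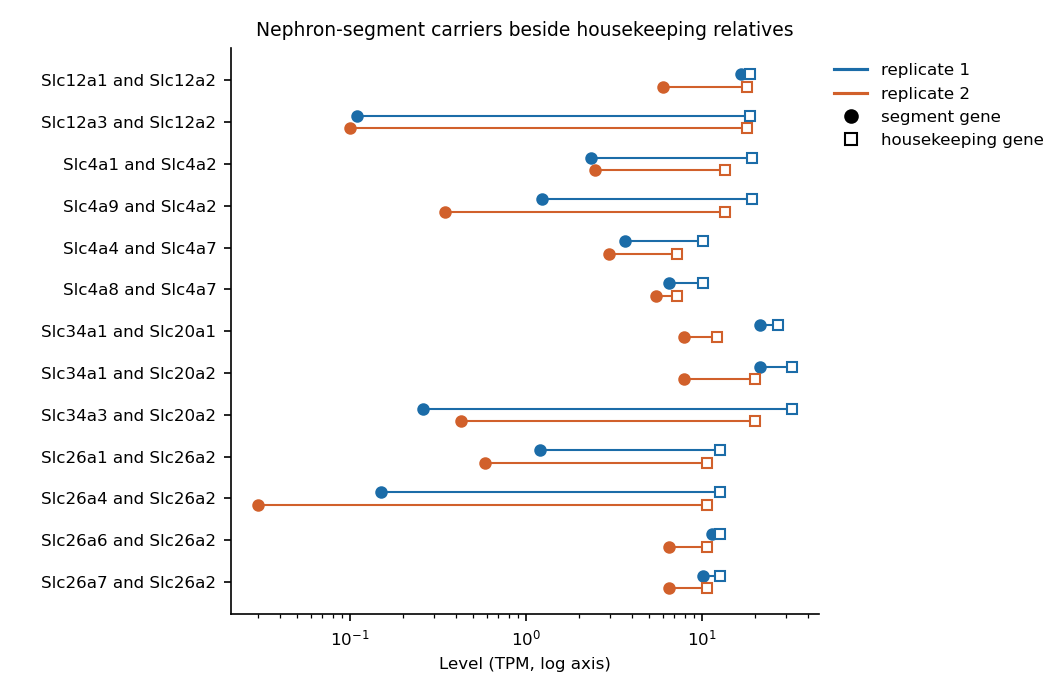
Level in TPM on a log axis, for 13 of the 14 pairs, of each segment carrier (filled circle) and its housekeeping relative (open square), joined by a line, in replicate 1 (blue) and replicate 2 (orange). In all 13 the filled circle lies to the left in both libraries, with the widest gaps for Slc12a3, Slc26a4 and Slc34a3.

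Most regulators of these carriers were detected. Of 17 kinases and adaptors listed, 16 were at 1 TPM or more in both libraries, Chp2 being the exception at 0.3 and 0.13 TPM. Ezr (ezrin, which links NHE3 and its scaffolds to actin) was the highest at 124.36 and 72.5 TPM, followed by Ahcyl1 (IRBIT, a partner of NBCe1) at 94.79 and 55.58 TPM and Slc9a3r1, in the order of their means. The kinases that switch NCC and NKCC2 on were also detected: Wnk1 at 45.89 and 55.23 TPM, Wnk4 at 22.31 and 14.29 TPM, Stk39 (SPAK) at 23.4 and 15.53 TPM and Oxsr1 (OSR1) at 14.83 and 8.89 TPM. These kinases therefore passed the floor in both libraries although NCC did not.

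For carriers with more than 1 annotated start site, the estimated levels of the transcripts were summed by start. No start site was itself measured, and some sums rest on short transcripts with few counts. In replicate 1, Slc4a4-204 of 780 nt gave 0.56 TPM of the internal sum from 7.47 counts. In replicate 2, Slc4a4-205 of 489 nt gave 0.46 TPM of the upstream sum from 4 counts. Slc4a4 has an upstream start and an internal start, and the internal one gives the form known as the kidney form of NBCe1. Transcripts of the upstream start summed to 3.07 and 2.72 TPM, or 87.2% ± 5.34 (SD, n = 2) of both, and those of the internal start to 0.61 and 0.27 TPM, or 12.8% ± 5.34. The leading transcript was Slc4a4-207, from the upstream start, with 79.73% and 70.31% of the gene's TPM; its deposited intervals, 2.49 to 3.05 and 1.78 to 2.23 TPM, lay above those of each transcript of the internal start. By these estimates the form named for the kidney was the lesser of the pair in both libraries. Transcripts of the third start of Slc4a2 summed to 8.26 and 5.81 TPM and those of the second to 7.14 and 3.41 TPM. Those of the first, at 0.87 and 0.69 TPM, were lower and are all short, of 405, 826 and 966 nt.

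**Figure D4:**
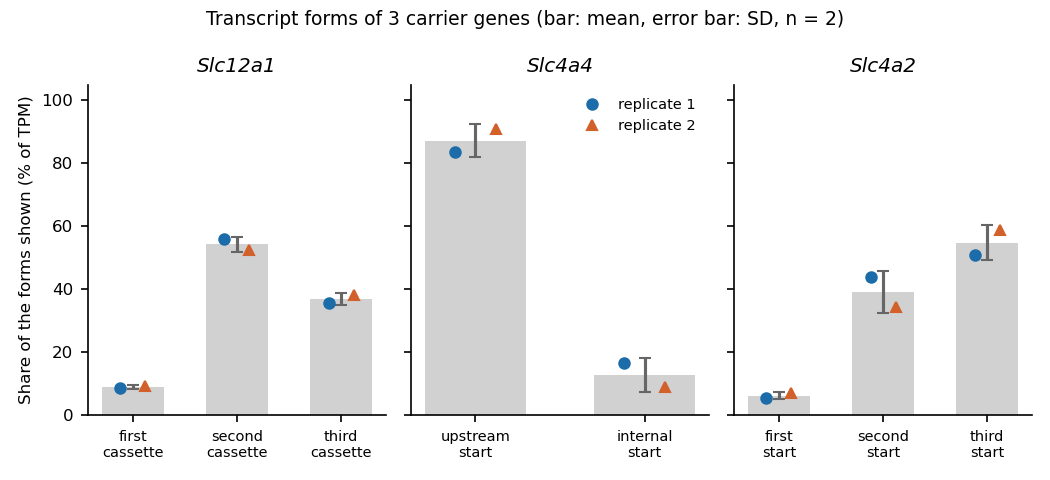
Share of TPM among the forms of Slc12a1 (by cassette exon) and of Slc4a4 and Slc4a2 (by start site); bars are means of 2 libraries, error bars their SD, and points the libraries. The second cassette of Slc12a1 and the upstream start of Slc4a4 lead in both libraries.

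The bases before the starts of these genes differed in their content of CG dinucleotides, which are frequent at the promoters of widely expressed genes. In RefSeq's promoter table (assembly GRCm38.p6), 43 of the 57 carriers had 55 windows of 250 bases before a start. For 36 of the 55, the 20 bases after the start lay in an annotated transcript of the gene. The median number of CG dinucleotides was 16 in 11 windows of 8 housekeeping carriers and 4 in 15 windows of 13 segment carriers. Over all 32841 windows of the table it was 6. The ranges overlapped, from 2 to 29 in the housekeeping windows and from 1 to 44 in the segment windows. Slc4a4 alone had 44 before the upstream start of RefSeq and 3 before its internal start. The upstream window lies wholly inside the first exon of Slc4a4 in GENCODE M21, whose leading transcript starts before it. Other segment windows also lie in exons, such as that of Slc26a6 with all 250 bases and 1 of Slc26a1 with 204. The internal window is printed from the plus strand with each CG in capitals. For contrast, 1 window of the housekeeping phosphate carrier Slc20a1 is printed likewise. With 29 it had the most CG of the housekeeping windows, while another window of Slc20a1 had 5. The internal window overlaps no exon of Slc4a4 and so lies in an intron of the upstream transcripts. The printed Slc20a1 window overlaps the first annotated exon of its gene by 9 bases.
Slc4a4 internal start, chr5:89027716-89027965: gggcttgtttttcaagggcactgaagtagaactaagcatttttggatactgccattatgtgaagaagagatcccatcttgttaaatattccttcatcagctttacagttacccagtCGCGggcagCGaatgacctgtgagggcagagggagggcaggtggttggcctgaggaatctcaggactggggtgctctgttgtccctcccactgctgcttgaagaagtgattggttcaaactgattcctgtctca
Slc20a1, chr2:129198523-129198772: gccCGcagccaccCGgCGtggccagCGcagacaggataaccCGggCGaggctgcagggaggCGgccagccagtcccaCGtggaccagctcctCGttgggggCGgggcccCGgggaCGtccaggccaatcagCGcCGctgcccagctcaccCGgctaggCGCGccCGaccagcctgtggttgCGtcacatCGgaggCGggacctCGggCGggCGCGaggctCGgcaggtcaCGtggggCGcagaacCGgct

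A pair of short motifs was also counted in the windows. GTTAAT, a half-site of the HNF1 factors searched on both strands, was in 1 of the 15 segment windows and 0 of the 11 housekeeping windows, beside 6.43% of all windows. TATAAA, the core of the TATA box searched likewise, was in 4 of 15 and 1 of 11, beside 12.4% of all windows. With so few windows these counts are a description only, and 4 segment carriers had no window.

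Most carriers kept the same leading transcript in both libraries. Of the 20 carriers at a mean of 5 TPM or more, 18 did so, and 5 of the 20 have a single annotated transcript. Slc26a2 was led by Slc26a2-201 in replicate 1 (35.53%, against 27.63% in replicate 2) and by Slc26a2-203 in replicate 2 (39.86%, against 29.28% in replicate 1). Slc9a8 was led by Slc9a8-207, with a retained intron, in replicate 1 and by Slc9a8-210, a non-coding transcript, in replicate 2, with 24.81% and 27.82% of the gene. Slc20a1 was led by Slc20a1-201 with 57.36% and 76.14%, and Slc34a1 has 1 transcript, Slc34a1-201.

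The carriers were lower in replicate 2 than in replicate 1 as a group, and so were most genes. Over the 29 carriers at a mean of 1 TPM or more, the median log2((TPM + 1) ratio) of replicate 2 over replicate 1 was -0.44, with 27 of the 29 lower in replicate 2, beside -0.29 over 12995 protein-coding genes at that level, 9913 of which were lower, a difference of -0.15. Transcript length moved with this difference between the libraries across these protein-coding genes. Longer ones were lower in replicate 2, with a Spearman rho of -0.551 across genes of 1 pair of libraries. Across the 29 carriers themselves the rho was 0.154. The carriers were longer, with a median of 3531 nt beside 2480 nt. Among the 3396 genes of 2877 to 4545 nt, the middle range of the carriers' lengths, the median was -0.52, and among the 15 carriers of that range -0.50. In this length range the carriers were thus no lower than other genes. The part of length in the difference of the carriers was not tested. The unadjusted TPM ratio of all detected protein-coding genes had a median of 0.801, a shift of -0.32 on the log2 scale, which applies to every comparison between the libraries here. Relative to the median gene of any length, the 9 segment carriers at this level were at -0.29. The 14 housekeeping carriers were at -0.22 and the 6 carriers of other tissues at 0.08. Within the 9 segment carriers, the 4 of the proximal tubule were at -0.29. The 2 of the thick ascending limb and distal tubule were at -0.82, and the 3 of intercalated cells at 0.08.

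A carrier was called apart between the libraries where the log2((TPM + 1) ratio) was at least 1 in size and the higher library had at least 5 TPM. Of the 21 carriers at 5 TPM or more in either library, 4 were apart, all lower in replicate 2, beside 4.22% of the 10696 protein-coding genes at that level and 8.67% of those of 2877 to 4545 nt. No carrier was apart in the other direction, beside 0.467% of genes. The 4 were Slc12a1 at -1.35, Slc34a1 at -1.32, Slc12a7 at -1.12 and Slc20a1 at -1.08. Of these, Slc12a7 and Slc20a1, of 5131 and 2641 nt in replicate 1, lie outside the range of 2877 to 4545 nt. The 4 of 21 cover carriers of every length, so they and the 8.67% are not a like comparison. When the median ratio of detected genes was set to 1, Slc12a1 and Slc34a1 remained past the rule, at -1.07 and -1.03, and Slc12a7 and Slc20a1 did not. Both are carriers of a nephron segment, from the thick ascending limb and the proximal tubule.

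Most markers of those segments were lower in replicate 2 as well, as were 9913 of 12995 genes. Of 6 proximal tubule markers, 5 were lower, with a median log2((TPM + 1) ratio) of -0.55 beside -0.29 over all genes; Lrp2 (megalin) was at 10.72 and 4.11 TPM and Hnf4a at 8.43 and 4.53 TPM, while Aqp1 was higher, at 2.17 and 4.15 TPM. Of 6 loop and distal markers, 5 were lower, with a median of -0.27 taken without a floor. That median includes Pvalb, at 0 TPM in both libraries, and Trpm6, at 0.4 and 0.23 TPM. The genes behind -0.29 were all at a mean of 1 TPM or more, so the 2 medians are not alike. Of the other loop and distal markers, Umod was at -0.36, Cldn16 at -0.09, Kcnj1 at -0.76 and Bsnd at -0.90. The part of these cells, or of transcript length, in the difference of Slc34a1 and Slc12a1 was not tested. The labels give each library its own collection day, so animal, day and library preparation cannot be told apart. Slc12a2, in contrast, differed by -0.05.

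**Figure D5:**
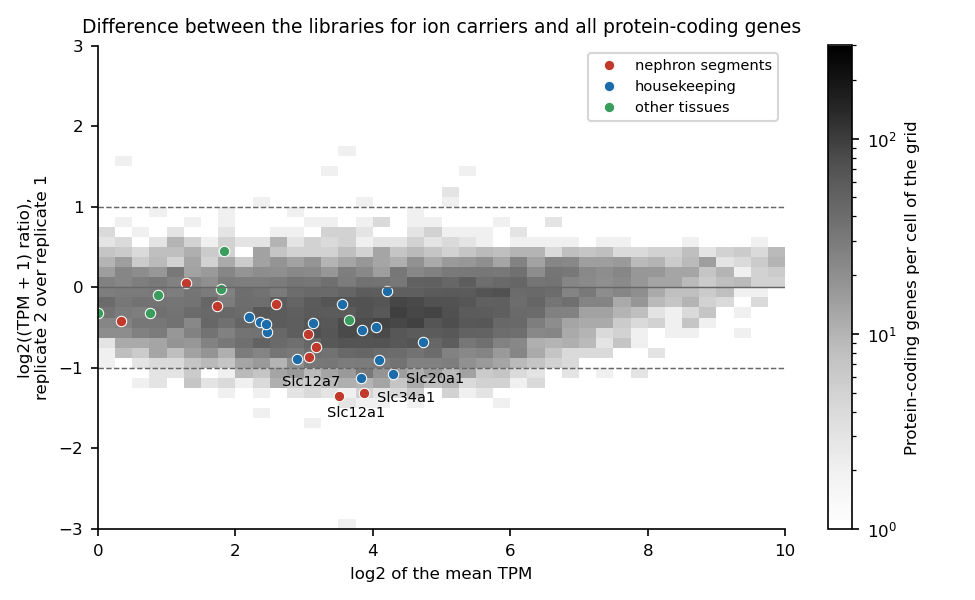
Each carrier at a mean of 1 TPM or more (coloured points, by role) over the density of all protein-coding genes (grey), with log2 of the mean TPM on the x axis and the log2((TPM + 1) ratio) of replicate 2 over replicate 1 on the y axis; dashed lines mark ratios of 1 and -1. Named points are the 4 carriers apart between the libraries, all under the lower dashed line.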

How the data were processed

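Total RNA was measured in 2 embryonic kidney libraries of 1 group. Reads were quantified by the authors against mm10 with GENCODE M4, per the deposited README; the aligner and quantifier, not given in the sources used here, wrote columns with the names RSEM uses. The deposited expected counts are estimated reads per gene or transcript and need not be whole. The deposited TPM values are scaled to transcript length and to a fixed sum, each with a posterior mean beside it. The deposited FPKM values are scaled to length and depth. The deposited bounds of each TPM's interval, a signal in TPM, hold for 1 library alone, include the prior of that estimate and so can lie above the TPM of a low gene. The deposited isoform percent is each transcript's share of its gene.

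Symbols, types and exon coordinates (1-based) came from GENCODE M21 on GRCm38, the same assembly but another release; 230 of the 252 transcripts of the carriers had the same length in both. Carriers were found by symbol. The members, roles, pairs and other gene lists were chosen with earlier results of these data known, and support nothing by themselves. Named with values are all segment and housekeeping carriers (3 of the latter and 1 pair are counted in the totals and not reported here by name), the 5 highest and 3 lowest of the others, all with under 3 counts in a library, all apart between libraries, and of other lists the 3 highest and the lowest; a few further genes of those lists were named after their values were seen.

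Detection was 1 TPM in both libraries. The pseudocount of 1 TPM understates differences of low genes. The size rule was tested on simulated data. With 2 libraries of 1 group there is no test, and SDs describe these libraries alone. Intervals and limits of 0 counts cover counting error only. Tables were handled with pandas 2.3.3 and numpy 2.4.6 in Python 3.11.15, intervals came from scipy 1.17.1, and plots from matplotlib 3.10.9. The alternatives tried were other floors, pseudocounts, estimates, lists and scalings.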

Additional observations from a re-analysis of the deposited data

How the results depend on the processing

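Of the 57 carriers, 44 had at least 10 counts in both libraries, against 27 at 1 TPM; with 1 library alone, 27 (without replicate 1) to 31 (without replicate 2) reached 1 TPM. The ratio of the segment median to the housekeeping median was 0.132 with posterior mean TPM, 0.0534 without segment carriers known from other tissues, 0.0807 with a narrower housekeeping list, and 0.101 with protein-coding transcripts only, an alternative chosen after seeing the data; it was 0.110 and 0.126 with 1 library left out. Carriers apart between the libraries numbered 1 with a pseudocount of 5 (Slc34a1) and 2 (Slc12a1 and Slc34a1) with FPKM or with the median ratio of detected genes set to 1, against 4. The comparison with genes of the carriers' length range and the Slc26a6 pair on protein-coding transcripts were also chosen after seeing the data. The causes were not tested. The segment median stayed below the housekeeping median, and the median log2 ratio of the carriers stayed negative, under every alternative run. The order of single carriers did change on protein-coding transcripts. There Slc26a6 fell below Slc26a11, and Slc4a3 below Slc24a5 and Slc9a9, in both libraries. The order of carriers and genes also changed in the length range. There the median log2 ratio was -0.50 for carriers and -0.52 for genes, against -0.44 and -0.29 as reported. No paired analysis was possible because there is 1 group. Carriers with few counts, such as Slc26a4, Slc9a3 and Slc12a3, have ratios that single counts move, and transcript shares depend on the annotation release used for counting.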
